A study of Mus musculus with 24 samples.

Results

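Receptors for neurotransmitters are the proteins through which neurons sense glutamate, GABA, glycine, acetylcholine, serotonin, dopamine and noradrenaline. The DhMRs (differentially hydroxymethylated regions, windows whose 5hmC level differs between 2 cell lines) of their genes are described here. Members were chosen by symbol: autosomal protein-coding genes named Gria, Grid, Grik or Grm with a number, Grin1, Grin2a to Grin2d, Grin3a and Grin3b, or beginning with Gabra, Gabrb, Gabrg, Gabbr, Glra, Chrna, Chrnb, Chrm, Htr, Drd, Adra or Adrb. A window belonged to such a gene when it lay whole inside the gene or carried its Ensembl identifier in the deposited lists. These rules gave 85 receptor genes of 20807 autosomal protein-coding genes, and 98 windows of 20726 in the lists. The Htr prefix also matches 4 HtrA genes, which encode serine proteases and no receptors. They had 3 windows and were set apart, and with them the patterns match 89 genes and 101 windows.

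The windows come from 5hmC-DIP sequencing, in which an antibody recovers DNA fragments that carry 5-hydroxymethylcytosine (5hmC), of mouse embryonic stem cells (ESCs). All cells were of mixed C57BL/6J-129V background, lacked their own Tet1, Tet2 and Tet3, the enzymes that oxidise 5-methylcytosine to 5hmC, and were kept in 2i medium with LIF, which holds ESCs undifferentiated. A lentivirus with the EF1α promoter gave them human Tet3, wild-type in the line Wt25 and mutant in the line AA10. In the mutant 2 serines of the catalytic domain, both targets of the kinase cdk5, were changed to alanine (AA). They are not all of the phosphorylation sites that the paper reports for Tet3. Each line is 1 puromycin-selected clone. There were 3 5hmC-DIP libraries of each line, pooled in the deposited lists, so an effect of the mutation and a difference between 2 clones cannot be told apart. A window is a bin of 200 bp listed with 198 of its bases, and it stands in 1 of 2 lists, with higher 5hmC either in Wt25 or in AA10 cells. The lists rank no window: they hold neither its reads nor the size or P-value of its difference, and no library stands apart in them. So the depth and the replicate error behind a window are unknown, values by sample cannot be given and no test between the lines was made. Intervals on shares (95%, Wilson) cover counting error only, and windows of 1 locus are not independent of each other.

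Ionotropic receptors are ion channels that open when the transmitter binds, and they carry the fast signals at synapses. Metabotropic receptors act more slowly through G proteins. Most of these genes are known for their roles in neurons and glia and belong to late stages of neural development, while the cells measured here are undifferentiated. 5hmC is known to gather in the bodies of active genes and at enhancers, and it becomes abundant in neurons. The RNA-seq and H3K27ac libraries of the series were not used here, so nothing is said of expression.

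The sequences below are shown because they are receptor windows at promoters or in coding sequence, neighbouring windows near a gene start, or windows rich in CpG, the dinucleotide where 5hmC is mainly found. They are read from GRCm38 on the plus strand, with each CpG in capitals. A promoter reaches from 1 kb upstream to 100 bp downstream of the start of any transcript of the gene. Of the 98 windows, 3 had their midpoint in a promoter and 1 in a coding exon. The window at Gria4, an AMPA receptor subunit, lies 0.369 kb upstream of the gene. That at Grin2d, an NMDA receptor subunit, lies 10.3 kb inside the gene, at a transcript that starts within it. That at Adra1d, an adrenergic receptor, lies in coding exon 1 of 2. The Gria4 window was in the AA10 list, those of Grin2d and Adra1d in the Wt25 list.
Gria4 promoter, AA10, chr9:4796603-4796800: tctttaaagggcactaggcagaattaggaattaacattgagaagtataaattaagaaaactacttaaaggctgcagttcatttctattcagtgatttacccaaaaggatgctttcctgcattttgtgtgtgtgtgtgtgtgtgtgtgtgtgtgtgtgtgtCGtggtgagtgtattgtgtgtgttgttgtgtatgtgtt
Grin2d promoter, Wt25, chr7:45868003-45868200: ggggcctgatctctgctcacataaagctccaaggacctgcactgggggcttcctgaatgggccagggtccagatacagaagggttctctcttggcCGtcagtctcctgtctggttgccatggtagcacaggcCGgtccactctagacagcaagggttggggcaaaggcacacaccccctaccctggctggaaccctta
Adra1d coding exon, Wt25, chr2:131561003-131561200: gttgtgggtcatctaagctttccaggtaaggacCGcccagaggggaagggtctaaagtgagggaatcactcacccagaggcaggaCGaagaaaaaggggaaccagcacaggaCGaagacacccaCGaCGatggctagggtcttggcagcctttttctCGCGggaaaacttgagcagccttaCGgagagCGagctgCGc

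The Gria4 window holds 1 CpG and a run of 36 bp of a repeated dinucleotide. The authors removed windows with simple tandem repeats, yet 5 of the 98 receptor windows hold a perfect dinucleotide run of at least 20 bp, 3 of those higher in Wt25 (4.29%) and 2 of those higher in AA10 (7.14%). Over all coding genes 3.11% of the Wt25 and 2.78% of the AA10 windows hold such a run. The part of these repeats in the calls was not tested.

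The next sequences come from genes that the results turn on, described further down, and the choice among them beyond the first of Grm7 was made after their values had been seen. At Grm7, the gene with most windows higher in AA10, 2 windows with 5 CpGs each are given, the highest number there, which other windows of the gene share. One lies upstream and the other near the gene start. At Adra2a neighbouring windows upstream of the gene are given, separated only by the 2 bases that the lists leave out of each bin. The Grik3 window holds 11 CpGs, the most in the Wt25 list of the receptor genes.
Grm7, 687 kb upstream, AA10, chr6:109958403-109958600: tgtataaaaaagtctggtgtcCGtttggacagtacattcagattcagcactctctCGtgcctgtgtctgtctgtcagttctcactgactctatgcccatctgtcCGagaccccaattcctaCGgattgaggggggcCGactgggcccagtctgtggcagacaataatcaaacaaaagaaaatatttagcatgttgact
Grm7 intron 1, AA10, chr6:110646603-110646800: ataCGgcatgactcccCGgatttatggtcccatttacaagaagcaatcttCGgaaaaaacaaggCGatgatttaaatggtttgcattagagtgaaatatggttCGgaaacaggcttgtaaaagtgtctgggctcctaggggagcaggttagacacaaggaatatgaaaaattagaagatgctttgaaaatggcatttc
Adra2a, 2.95 kb upstream, Wt25, chr19:54041003-54041200: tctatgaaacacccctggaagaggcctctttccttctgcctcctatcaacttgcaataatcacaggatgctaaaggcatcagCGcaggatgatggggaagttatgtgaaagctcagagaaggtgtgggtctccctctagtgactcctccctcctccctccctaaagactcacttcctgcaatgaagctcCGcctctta
Adra2a, 2.75 kb upstream, Wt25, chr19:54041203-54041400: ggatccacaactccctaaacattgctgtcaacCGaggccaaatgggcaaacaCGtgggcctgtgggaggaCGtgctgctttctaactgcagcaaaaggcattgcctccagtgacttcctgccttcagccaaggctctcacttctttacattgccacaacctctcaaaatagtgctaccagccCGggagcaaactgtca
Adra2a, 2.55 kb upstream, Wt25, chr19:54041403-54041600: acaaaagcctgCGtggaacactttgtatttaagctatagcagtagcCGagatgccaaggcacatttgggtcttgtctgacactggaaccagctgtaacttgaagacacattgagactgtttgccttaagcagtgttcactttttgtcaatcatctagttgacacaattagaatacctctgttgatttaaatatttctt
Grik3, 74.9 kb upstream, Wt25, chr4:125415603-125415800: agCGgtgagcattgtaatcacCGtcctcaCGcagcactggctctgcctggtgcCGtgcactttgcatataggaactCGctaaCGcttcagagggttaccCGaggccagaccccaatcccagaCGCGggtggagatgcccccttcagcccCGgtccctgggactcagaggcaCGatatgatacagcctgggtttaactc

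Among the 98 receptor windows, 70 had higher 5hmC in Wt25 and 28 in AA10 cells, a Wt25 share of 71.4% (61.8 to 79.4). Over all windows of autosomal protein-coding genes the share was 58.8% (10538 of 17935 windows). Wt25 windows belonged to 25 receptor genes and AA10 windows to 15, with 6 genes in both lists and 51 in neither. Of the receptor genes 29.4% had a Wt25 window, against 22.8% of all autosomal protein-coding genes, and 17.6% had an AA10 window, against 17.0%. Long genes collect more windows, and 32 of the 85 receptor genes are at least 100 kb long. Any window was found at 40.0% of the receptor genes, against 34.9% of all coding genes, and from 100 kb on at 53.1%, against 65.4%. Among these 32, 12 had a Wt25 window (37.5%) and 8 an AA10 window (25.0%), below the 45.5% and 37.3% of all coding genes of at least 100 kb. The 2 sets are not matched in length, since their median lengths are 354 kb and 169 kb. The share of receptor genes with a Wt25 window was thus above that of all genes and, among long genes, below it, and neither difference was tested.

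Chromosome 6 bears on the direction. On it only 12.0% of all windows were higher in Wt25 (136 of 1136), and the receptor genes that lie there, Grm7 and Grm8 among them, had 12 windows, of which 1 was higher in Wt25 and 11 in AA10. Without chromosome 6 the receptor genes had 69 Wt25 and 17 AA10 windows, a share of 80.2% (70.6 to 87.3), against 61.4% of all windows of coding genes outside that chromosome. No receptor window lay in one of the dense runs of the lists (at least 20 consecutive windows of 1 direction with gaps of at most 10 kb), which held 1150 Wt25 and 1343 AA10 windows of coding genes.

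A few loci carried much of the count. There were 13 receptor genes with 3 or more windows, and they held 73 of the 98. Another 4 genes had 2 windows and 17 had 1. Grik2 had 15 windows, Grik3 and Grm7 had 9 each and Adra2a had 8. Without these 4 genes 41 Wt25 and 16 AA10 windows were left, a share of 71.9% (59.2 to 81.9), close to that of all 98.

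**Figure D1:**
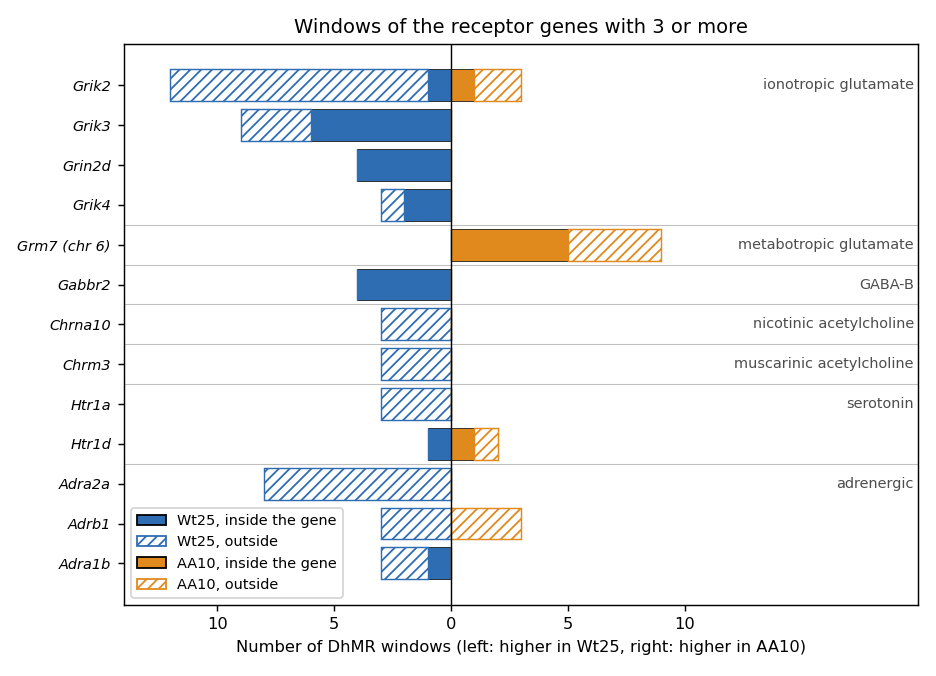
Number of DhMR windows of each of the 13 receptor genes with 3 or more, grouped by class. Bars to the left count windows with higher 5hmC in Wt25 and bars to the right those with higher 5hmC in AA10 cells, filled where the window lies inside the gene and hatched where it lies outside. Grik2, Grik3 and Adra2a stand out on the Wt25 side with 12, 9 and 8 windows, and Grm7 on the AA10 side with 9.

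Ionotropic glutamate receptors were the class with most windows, 38 in 11 of 17 genes, and 32 of them (84.2%, 69.6 to 92.6) were higher in Wt25. Genes of the class have a median length of 319 kb, but Grik5, Grin1, Grin2c, Grin2d and Grin3b are shorter than 100 kb. A window is found at 34.9% of all coding genes and at 65.4% of those of at least 100 kb. The 11 of 17 stand close to the latter, though the class also holds short genes. Within the class the kainate receptor subunits (Grik), which act on both sides of the synapse, held 27 windows, 24 in the Wt25 list. NMDA receptor subunits (Grin), which form the calcium-permeable channels known for their role in synaptic plasticity, held 6 Wt25 and 2 AA10 windows. The delta subunit Grid1, which organises synapses, had 1 Wt25 window. Of the AMPA receptor subunits (Gria), the main carriers of fast excitation, Gria4 had its 1 AA10 window, and Gria1 and Gria2 had none. Without Grik2 and Grik3 the class kept 11 Wt25 and 3 AA10 windows (78.6%, 52.4 to 92.4).

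Grik2 (chromosome 10, 49094833 to 49788766, minus strand) had 12 Wt25 and 3 AA10 windows, but only 2 of the 15 lay inside the gene, a Wt25 window in intron 7 and an AA10 window in intron 2. The other Wt25 windows lay downstream, from 5.23 to 572 kb past the end of the gene. In that stretch 8 windows, all in the Wt25 list and with 20 CpGs together, stood within 29.6 kb. They are tied to Grik2 only by the identifier in the lists. The remaining AA10 windows lay 125 and 135 kb upstream. At Grik2 the directions were thus set apart by position, with AA10 windows upstream and in the first part of the gene and Wt25 windows from its middle onward.

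Grik3 (chromosome 4, 125490700 to 125714173, plus strand) had 9 windows, all higher in Wt25 cells. Inside the gene lay 6, of which 4 were in intron 1, 1 in intron 3 and 1 in intron 4. The first stood 2.60 kb after the gene start with 6 CpGs. The others lay 31.3, 74.9 and 149 kb upstream, and the middle of these is the window with 11 CpGs printed above. In 1 Mb on either side of the gene the lists held 23 further Wt25 and 9 AA10 windows. Its relative Grik4 had 3 Wt25 windows, in introns 1 and 11 and 18.1 kb upstream, and Grik1 and Grik5 had none.

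Grin2d, whose subunit prevails in the developing brain, had 4 windows, all inside the gene and higher in Wt25. They stood within 20.6 kb of chromosome 7, in introns 6 and 9 and at the inner promoter. Grin2a had 1 Wt25 window 13.6 kb upstream, and Grin3b 1 Wt25 window 3.71 kb upstream, inside the neighbouring gene Wdr18. Grin2b, on chromosome 6, had 1 AA10 window in intron 3 and Grin2c 1 AA10 window in intron 4, which holds 8 CpGs. Grin1, the subunit that every NMDA receptor contains, and Grin3a had no window. Grid1 had its Wt25 window in intron 2.

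Metabotropic glutamate receptors went the other way, with 4 Wt25 and 10 AA10 windows (28.6%, 11.7 to 54.6) in 4 of 8 genes. Their median length is 318 kb. Of all coding genes 34.9% have a window, and of those of at least 100 kb 65.4%. All but 1 of the AA10 windows belonged to Grm7, a presynaptic receptor that restrains transmitter release, which lies on chromosome 6 (110645581 to 111567230, plus strand). Without that chromosome the class had 4 Wt25 windows and 1 AA10 window (80.0%, 37.6 to 96.4), so its direction rests on Grm7. Whether the direction at Grm7 is more than that of its chromosome was not tested.

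The 9 Grm7 windows lay in 3 groups. A pair stood in intron 1 near the gene start, and the one printed above, 1.12 kb after it, holds 5 CpGs. In intron 8 another 3 windows lay between 803 and 843 kb after the start. The remaining 4 lay 511 to 716 kb upstream of the gene, tied to it by the identifier alone. Grm8, the other member of the class on chromosome 6 and 860 kb long, had no window at all, although 2 Wt25 and 21 AA10 windows lay within 1 Mb on either side of it.

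Grm2 had Wt25 windows in intron 3 and 10.9 kb upstream, and Grm3 had 1 Wt25 window 434 kb upstream. Taking both glutamate classes, 36 windows were higher in Wt25 and 16 in AA10 cells (69.2%, 55.7 to 80.1), and 35 against 6 outside chromosome 6 (85.4%, 71.6 to 93.1).

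**Figure D2:**
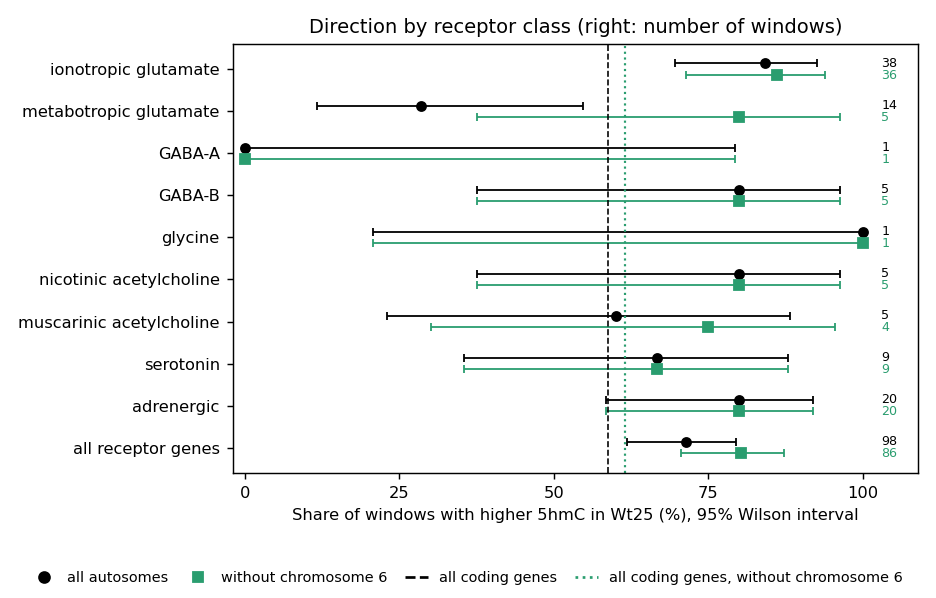
Share of windows with higher 5hmC in Wt25 cells (percent, horizontal axis) for each receptor class with a window, with 95% Wilson intervals over windows, for all autosomes (circles) and without chromosome 6 (squares). The numbers at the right are windows, and the lines mark the shares over all protein-coding genes, 58.8% and 61.4%. The metabotropic glutamate class moves from 28.6% to 80.0% when chromosome 6 is left out.

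GABA-A receptors are the chloride channels that carry fast inhibition, and they were nearly empty. Their 11 genes had 1 window, in the AA10 list. Of all coding genes 34.9% have a window, and of those of at least 100 kb 65.4%. Gabra2, Gabrb1, Gabrg1 and Gabrg3 were among the GABA-A genes without. The 11 GABA-A genes cover 2.27 Mb, so the density inside them was 0.441 windows per Mb, against 7.37 over all coding genes of at least 100 kb. Most of them stand in clusters with each other. Around Gabra2 and Gabrg1 the lists held no window in 1 Mb on either side. Gabrg3, 671 kb long, and Gabrb1, 491 kb long, were among the 5 longest receptor genes without a window, beside Grm8 and Grm5, 551 kb long.

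GABA-B receptors, the metabotropic counterpart, work as pairs of the products of Gabbr1 and Gabbr2. Gabbr2, the partner that couples to the G protein, had 4 windows, all higher in Wt25 and all inside the gene, in introns 1, 9 and 12, and 3 of these 4 stood within 16.0 kb. Gabbr1, the partner that binds GABA, had 1 AA10 window in intron 6. The 2 genes together held 13.9 windows per Mb, more than any other class. The inhibitory glycine receptors had 1 window, a Wt25 window 143 kb upstream of Glra1, and none at Glra3. A window was thus found at both GABA-B genes and at 1 of 2 glycine receptor genes, where 34.9% of all coding genes have one.

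Nicotinic acetylcholine receptors, the cation channels of the nerve-muscle junction and of many brain synapses, had 4 Wt25 windows and 1 AA10 window in 3 of 13 genes, where 34.9% of all coding genes have a window. Chrna10, known from the hair cells of the inner ear, had 3 Wt25 windows 8.38, 32.4 and 43.0 kb upstream, all of which lie inside the neighbouring gene Nup98, a nucleoporin. The Wt25 window of Chrnb2, in intron 5, also lies inside Adar. The AA10 window of Chrna7 lies in intron 8. No window was found for Chrna1, Chrna2, Chrna3, Chrna4, Chrna5, Chrna6, Chrna9, Chrnb1, Chrnb3 and Chrnb4, the first of which encodes a muscle subunit.

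Muscarinic receptors, which couple to G proteins, had 3 Wt25 and 2 AA10 windows (60.0%, 23.1 to 88.2), near the 58.8% over all coding genes. They belonged to 3 of 5 genes, where 34.9% of all coding genes have a window. None of the windows lay inside a gene of the class. The Wt25 windows belonged to Chrm3 and lay 89.4, 489 and 489 kb upstream, the far pair in adjoining bins. The AA10 windows lay 389 kb upstream of Chrm2, on chromosome 6, and 33.0 kb upstream of Chrm4 inside Ambra1. Chrm1 and Chrm5 had none.

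Serotonin receptors had 6 Wt25 and 3 AA10 windows (66.7%, 35.4 to 87.9) in 4 of 13 genes, where 34.9% of all coding genes have a window. Htr1d, a receptor on nerve endings, had a Wt25 and an AA10 window in intron 1, at 73.7% and 86.1% of the gene's length, and another AA10 window 7.92 kb upstream, so the directions lay side by side. Htr4, a receptor that raises cyclic AMP, was also in both lists, with a Wt25 window 0.297 kb after the gene start in intron 1 and an AA10 window in intron 2. Htr3b, a subunit of the only serotonin receptor that is an ion channel, had 1 Wt25 window in intron 1 with 6 CpGs. Htr1a, an inhibitory receptor, had 3 Wt25 windows outside the gene, 18.4 kb upstream and 726 and 727 kb downstream. Htr1b, Htr1f, Htr2a, Htr2b, Htr3a, Htr5a, Htr5b, Htr6 and Htr7 had none.

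Dopamine receptors (Drd1 to Drd5) had no window in either list. Their 5 genes cover only 0.149 Mb, so 0 windows inside them allow a density of up to 20.2 per Mb and say little. The neighbourhood was not empty, since 32 Wt25 windows and 1 AA10 window lay within 1 Mb of Drd2 and 25 and 2 within 1 Mb of Drd4.

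Adrenergic receptors, which sense adrenaline and noradrenaline, had 16 Wt25 and 4 AA10 windows (80.0%, 58.4 to 91.9) in 5 of 9 genes. Any window is found at 34.9% of all coding genes. Of the 20 adrenergic windows 14 belong to Adra2a and Adrb1 on chromosome 19, 11 of them higher in Wt25, and 81.4% of all windows of that chromosome are. Without chromosome 19 the class had 5 Wt25 windows and 1 AA10 window. The genes are short, and only 3 of the 20 windows lay inside them. Adra2a (chromosome 19, 54044151 to 54048982, plus strand), whose receptor inhibits noradrenaline release, had 8 windows, all higher in Wt25. The 3 neighbouring windows printed above lie 2.55 to 2.95 kb before the gene and hold 8 CpGs, 2 more lie 44.4 and 46.8 kb upstream inside Shoc2, and the rest lie 16.4, 37.6 and 149 kb downstream. Without Adra2a the class had 8 Wt25 and 4 AA10 windows (66.7%, 39.1 to 86.2).

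Adrb1, the main adrenergic receptor of the heart, lies on chromosome 19 as well but had 3 windows in each list, all of them upstream. The AA10 windows lay 85.4, 52.8 and 0.999 kb before the gene and the Wt25 windows 65.4, 51.4 and 33.8 kb before it, so the directions were interleaved. The AA10 window nearest to the gene has its inner edge 0.999 kb and its midpoint slightly over 1 kb before the gene, just outside the promoter as defined here. Adra1b had 3 Wt25 windows, 1 in intron 2 and the others 17.0 and 33.4 kb upstream. Adrb3, known from fat tissue, had a Wt25 window 3.78 kb downstream, inside Got1l1, and an AA10 window within its annotated span but outside its basic transcripts. Adra1a, Adra2b and Adra2c had none.

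**Figure D3:**
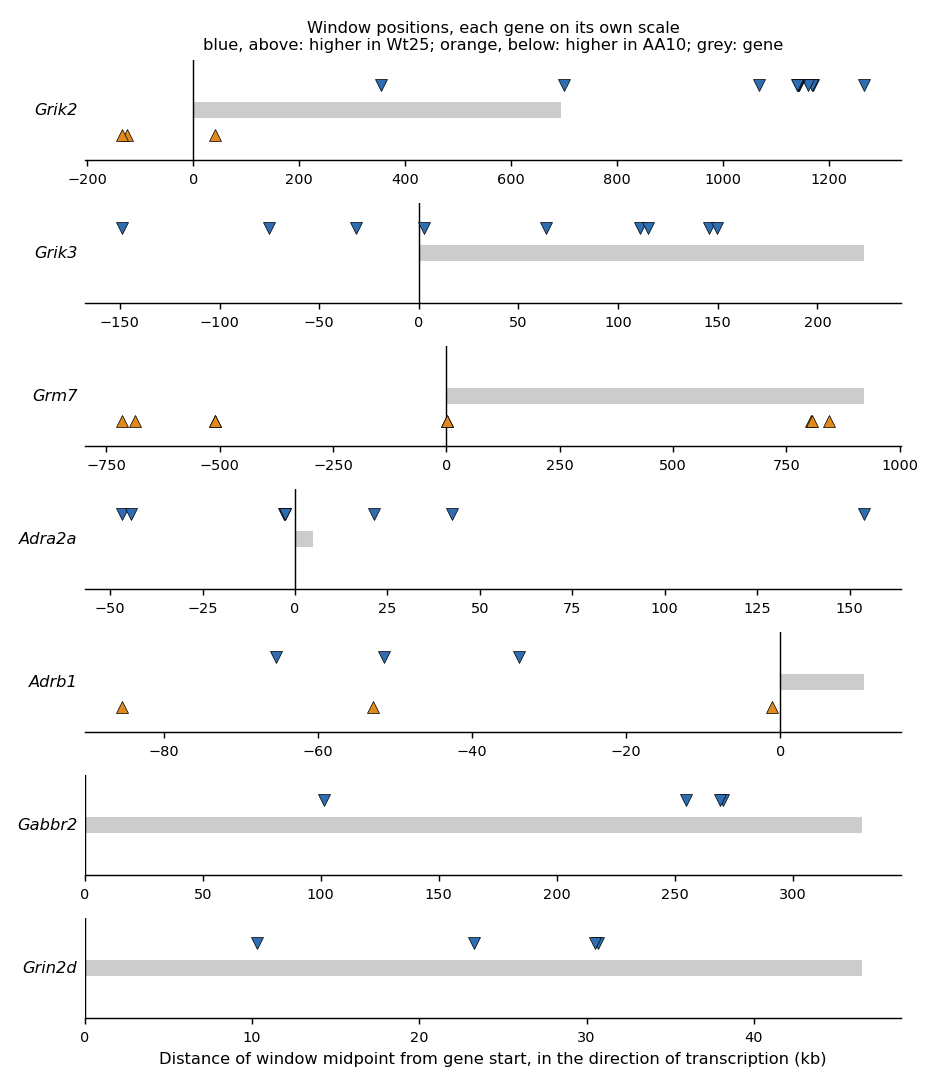
Positions of the windows of the 7 receptor genes with at least 4 windows, as distance of the window midpoint from the gene start in the direction of transcription (kb, each gene on its own scale). Windows higher in Wt25 stand above and those higher in AA10 below the gene, drawn as a grey bar. At Grik2 most Wt25 windows lie beyond the gene end, at Adra2a and Adrb1 none lies inside, and at Gabbr2 and Grin2d all 4 do.

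Over all classes 42 of the 98 windows (42.9%) lay inside their own receptor gene, and these 42 belonged to 22 genes. Of the windows of all coding genes 58.9% lay inside some coding gene, whichever it was. The latter measure is wider, since it would also count receptor windows that lie inside another coding gene. Inside the genes 27 were higher in Wt25 and 15 in AA10 (64.3%, 49.2 to 77.0), and outside them 43 and 13 (76.8%, 64.2 to 85.9). Inside all coding genes the lists held 6450 Wt25 and 4107 AA10 windows, and for windows outside them no share was computed. The interval for the inside windows holds the 58.8% of all windows of coding genes, a share that takes inside and outside windows together. Whether inside and outside windows differ in direction was not tested. The distance to the gene among the outside windows had a median of 51.4 kb for Wt25 (2.55 to 727 kb) and 125 kb for AA10 (0.369 to 716 kb), and 18 and 7 of them were over 100 kb away. Downstream windows were found in the Wt25 list alone (17, of which 11 at Grik2), while all 13 outside windows of the AA10 list lay upstream. Upstream and downstream windows were not counted over all coding genes and the contrast was not tested. It therefore cannot be called particular to receptor genes. By midpoint, introns held 25 Wt25 and 13 AA10 windows, and no receptor window fell in an untranslated region. Of the outside windows 8 of the Wt25 list and 1 of the AA10 list lay inside another protein-coding gene.

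Per length of gene the receptor genes were sparse. Their spans cover 14.1 Mb and held 2.97 windows per Mb, 1.91 of them higher in Wt25 and 1.06 in AA10, against 10.6 per Mb over all autosomal protein-coding genes and 9.37 without dense runs. Among genes of at least 100 kb the densities were 2.22 per Mb for receptor genes and 7.37 for all coding genes. Receptor genes also hold fewer CpGs, 7.21 per kb against 9.99, and per 10000 CpGs they held 4.12 windows against 10.7, or 9.38 without dense runs. The density ranged by class from 0 for glycine, muscarinic and dopamine receptors to 13.9 per Mb for GABA-B receptors. Above the density of all coding genes stood GABA-B alone, with 5 windows in 2 genes. Per 10000 CpGs it held 10.0 windows, below the 10.7 of all coding genes and above their 9.38 without dense runs. In the glycine and muscarinic genes a count of 0 allows up to 10.6 and 4.63 windows per Mb.

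**Figure D4:**
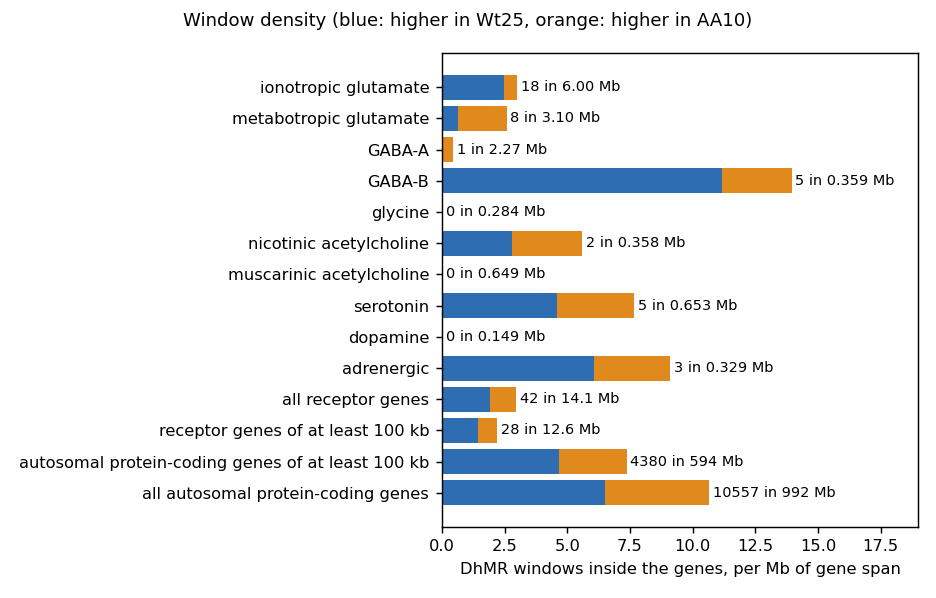
DhMR windows inside the genes per Mb of gene span (horizontal axis) by receptor class and for all protein-coding genes, split into windows higher in Wt25 (blue) and in AA10 cells (orange), with the number of windows and the span at each bar. Receptor genes together reach 2.97 per Mb and all autosomal protein-coding genes 10.6 per Mb.

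Windows of receptor genes held 3.03 ± 2.32 CpGs (mean ± SD over 70 windows) where 5hmC was higher in Wt25 and 3.61 ± 2.70 (28 windows) where it was higher in AA10, against 3.26 ± 2.54 and 3.19 ± 2.35 over all coding genes. Windows with 1 CpG made up 24 of the 70 Wt25 windows (34.3%, against 22.6% over all coding genes), windows with 5 CpGs 7 of the 28 AA10 windows (25.0%, against 7.81%), and none of the 98 had 0. Most of these 7 belong to 1 gene, Grm7 on chromosome 6, and the others to Htr1d, Htr4 and Adrb1. Both numbers of CpGs were picked as the commonest of their list after the counts had been seen. A CCGG site, where MspI cuts, was present in 16 Wt25 and 6 AA10 windows (22.9% and 21.4%, against 22.3% and 21.0%). Repeat-marked bases made up a median of 24.7% of a Wt25 and 14.1% of an AA10 window, against 19.2% and 21.7%.

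**Figure D5:**
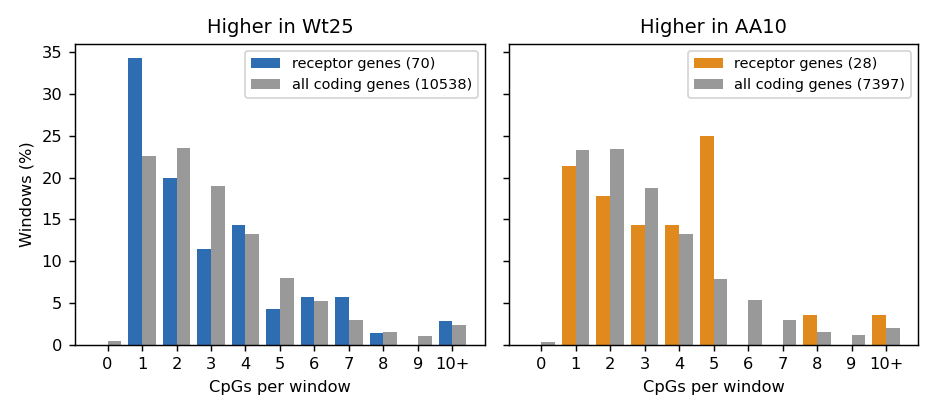
Share of windows (percent, vertical axis) by number of CpGs per window, for receptor genes (coloured) and all protein-coding genes (grey), with higher 5hmC in Wt25 at the left and in AA10 cells at the right. Windows with 1 CpG are the commonest kind in the Wt25 list of the receptor genes, 24 of 70, and windows with 5 CpGs in the AA10 list, 7 of 28. Most of these 7 belong to Grm7 on chromosome 6.

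The partners of the receptors were counted from lists of transporters, synthetic enzymes and auxiliary subunits, 58 genes in all. Of these 13 had a Wt25 (22.4%) and 10 an AA10 window (17.2%), near the 22.8% and 17.0% of all coding genes, and 36 had none. The 58 genes held 35 Wt25 and 14 AA10 windows, in the same proportion as the 70 and 28 of the receptor genes. The direction of the receptor genes is thus not particular to them. The auxiliary subunits of glutamate receptors, which steer their trafficking and gating, had 20 Wt25 and 3 AA10 windows. Of the 14 genes listed, 6 had a Wt25 window (42.9%, against 22.8% of all coding genes). An AA10 window was found at 2 (14.3%, against 17.0%), and 6 had none. Of the 20 Wt25 windows 10 belonged to Shisa7, 7 of them inside the gene. Cacng4 had 4 and Neto1, a partner of kainate receptors, 3 Wt25 windows. Among genes of glutamate transport and synthesis, Slc1a3, the glial glutamate transporter, had 7 Wt25 and 2 AA10 windows and the other 9 genes 1 each at most. Genes of GABA synthesis and transport had AA10 windows only, 1 each at Gad1, Gad2 and Slc6a12, the last on chromosome 6. These are 3 of 8 genes (37.5%, against 17.0% of all coding genes), and none of the windows lay inside its gene. The 11 monoamine genes had 6 Wt25 and 3 AA10 windows, 3 of the former at Tph2, which makes serotonin in neurons. The 7 acetylcholine genes had 2 AA10 windows, both at Chrne, the 5 other GABA-A subunits 1 Wt25 window, at Gabrr1, and the 3 glycine genes none. The genes other than Slc1a3, Tph2, Cacng4, Neto1 and Shisa7 were named after their values had been seen.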

How the data were processed

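The authors aligned 5hmC-DIP reads of 3 libraries of each line uniquely to GRCm38 and removed duplicates, called bins of 200 bp with MEDIPS (P under 0.05, fold change of at least 1) from all libraries of both lines at once, removed bins that overlap IgG-DIP peaks or hold simple repeats, and annotated genes with HOMER. The deposited lists hold chromosome, start, end and Ensembl identifier, with no ratio, count or P-value, so no replicate can be left out. Tool versions are not given in the sources used here. Of the series, RNA-seq, H3K27ac and input libraries were not analysed here.

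Gene spans and transcripts came from GENCODE vM21 basic and bases from GRCm38.p6. Windows were assigned, counted, joined and described with Python 3.11.15, numpy 2.4.6, scipy 1.17.1, pysam 0.24.0 and matplotlib 3.10.9. A feature was taken at the window midpoint over all transcripts of the gene, and intron numbers from its principal transcript. Inside counts were divided by the union of gene spans. The functions were tested on simulated data, and 22 of 22 checks gave the known answer. No set test was made. The members, classes and lists were chosen with earlier results of these data known. Genes were named that had at least 3 windows, windows in both lists or a promoter or coding window, that led their class, or that were among the 5 longest without a window, and transmitter genes outside the rule from 3 windows on. Other genes with few or no windows were named after their values had been seen. Some member genes and window sequences that this rule selects are not reported here, while their windows stay in the counts. Alternatives were other rules of membership, RefSeq spans, joined windows, and leaving out chromosome 6, chromosome 19 or dense runs.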

Additional observations from a re-analysis of the deposited data

How the results depend on the processing

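Membership, annotation, joining, repeats and chromosomes 6 and 19 were varied, and of 98 values so computed 90 stayed within 1.5 times a reported count, within the Wilson interval of a reported share or within 1 SD of a mean number of CpGs, 7 moved further and 1 reversed. These bounds are wide for small classes, and some of the 98 values could not change. No receptor window lay in a dense run, and the GABA-B, nicotinic, serotonin and adrenergic classes have no gene on chromosome 6. Leaving out dense runs, or chromosome 6 for these classes, thus kept their values by construction. Counting only windows inside the gene left 27 Wt25 and 15 AA10 windows, with 15 genes in the Wt25 list, by construction. Without chromosome 6 there were 17 AA10 windows and the Wt25 share was 80.2%, and the share of the metabotropic glutamate receptors reversed from 28.6% to 80.0%, since the 9 AA10 windows of Grm7 lie there. Leaving out Grik2, Grik3, Grm7 and Adra2a, an alternative chosen after seeing the data, left 41 Wt25 and 16 AA10 windows. Also chosen so, leaving out windows over 100 kb from the gene gave a share of 71.2%, and leaving out chromosome 19 gave 70.2% for all receptor genes and 83.3% for adrenergic receptors. The Wt25 share of all receptor windows lay between 64.3% and 80.2% under every alternative run. With 5 windows in each class, shares were loose within those bounds: GABA-B receptors by identifier alone and nicotinic receptors by span alone had 50.0%, against 80.0%. Joining neighbouring windows was not run for the number of genes, since it cannot change it. No paired analysis was possible because the lists pool the libraries and the result comes from no test. The unknown depth of single windows and the small number of windows in most classes limit these counts.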
